A study of Mus musculus with 4 samples.

Results

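Gene expression was compared between 2 libraries labelled as the stromal vascular fraction (SVF) of inguinal white fat. That name stands for the non-adipocyte cells released from a depot. One library came from LnF1 males labelled 1,3BD and the other from LnF1 males labelled water. Each library was a pool of 3 wild-type males at postnatal day 21, so there was 1 library a side and no difference below carries a p-value. The other 2 of the 4 libraries in the series were the same drinks in ObF1 males of the same age and genotype, again 1 pool of 3 mice each. Going by the series title, the offspring groups LnF1 and ObF1 differ in whether their parents were obese. All 4 groups shared genotype, sex, age, tissue and library kit. The labels name no strain and do not say how or for how long 1,3BD was given. Columns of the deposited table that name no drink were read as water, since their partner columns name BD. Of 55536 rows, the 10223 with a mean of at least 5 CPM over the 2 LnF1 libraries were kept (18.4%), and they held 99.2% of the water reads and 99.1% of the 1,3BD reads. CPM here is reads per 1000000 reads on the authors' scale, in which each library total had been multiplied by a scaling factor (0.9498 in LnF1 water and 1.134 in LnF1 1,3BD).

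1,3BD is a common abbreviation of 1,3-butanediol, which the liver turns into the ketone body beta-hydroxybutyrate. The labels do not spell the name out. The SVF of young fat holds adipose progenitors, which can take up lipid and become adipocytes, or lay down collagen and build actin stress fibres as myofibroblasts do. In such fibroblasts SRF and its coactivators drive actin and smooth muscle genes through CArG boxes in their promoters, and YAP drives matricellular genes such as Ctgf. Glucocorticoid receptor, the metal sensor MTF1, the antioxidant factor NRF2 and the unfolded protein response each drive small, well-known sets of genes, and the lists below follow those roles.

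The libraries held 24804006 recovered reads for LnF1 water and 24586827 for LnF1 1,3BD, with 26000090 and 25432747 for the ObF1 pair. One read was worth 0.0424 CPM in LnF1 water and 0.0359 CPM in LnF1 1,3BD, and a gene with 0 reads could be as high as 3 reads, 0.127 and 0.108 CPM. Intervals below are exact 95% binomial intervals of a ratio of reads and cover counting error only, not the spread between mice or pools. The labelled cell mixture was checked against its markers. Cd3e, Cd79b, Nkg7 and Ms4a1 of lymphocytes had 0 reads in all 4 libraries, and 11 of 15 white blood cell markers stayed under 1 CPM in each. Of 13 endothelial markers 4 stayed under 1 CPM throughout, with Cldn5 at no more than 0.0424 CPM. Epcam, Krt5 and Krt8 of epithelium and Adipoq, Lep and Pck1 of mature adipocytes were also at 0 reads in all 4 libraries. Lyz2 was the most abundant white blood cell marker, at 12.2 CPM in LnF1 water and 1.33 with 1,3BD. Krt19, a keratin listed for both epithelium and mesothelium, stood at 55.1 and 2.94 CPM in LnF1 and at 88.2 and 9.45 in ObF1, and made up most of the epithelial sum (58.8 and 4.73 CPM in LnF1) and of the mesothelial sum (55.4 and 3.16 CPM). The fibroblast genes Col1a1 and Pdgfra stood at 16522 and 243 CPM in LnF1 water. Endothelial markers summed to 75.8 CPM in LnF1 water and 22.6 with 1,3BD, most of it Flt1 and Tek.

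Short promoter stretches are shown here for members of 4 gene lists below, each tied to a known DNA motif that part of its members held. Stretches were taken only from strongly differing members whose window held the motif, so they do not stand for the whole lists. Acta2, the contractile gene with the largest difference, was not among those with a match. The sequences are RefSeq windows (GRCm38.p6), 250 bases that end just before the annotated start site, 5′ to 3′ on the gene's strand. Capitals mark matches on either strand to the motif of the list. For Ifit3 (chr19:34583279-34583528, plus strand) and Gbp2 (chr3:142620413-142620662, plus strand), lead members of the interferon list, the capitals mark the interferon-stimulated response element GAAANNGAA, which begins 155, 121 and 102 bases before the start in Ifit3 and 58 bases before it in Gbp2. For Myl9 (chr2:156775214-156775463, plus strand) and Acta1 (chr8:123894776-123895025, minus strand), contractile genes with a match, they mark the CArG box, 161 and 73 bases before the start. For Mt2 (chr8:94172368-94172617, plus strand), the metallothionein with the largest difference, they mark the metal response element TGCACNC or TGCGCNC. For Hspa5 (chr2:34771840-34772089, plus strand), the main chaperone of the endoplasmic reticulum (ER), they mark CCACG, a part of the ER stress element, 51 bases before the start.
Ifit3: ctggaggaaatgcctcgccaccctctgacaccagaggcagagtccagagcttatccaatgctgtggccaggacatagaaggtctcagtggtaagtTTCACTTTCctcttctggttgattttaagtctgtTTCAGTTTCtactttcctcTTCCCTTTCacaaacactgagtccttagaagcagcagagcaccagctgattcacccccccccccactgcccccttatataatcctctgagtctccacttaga
Gbp2: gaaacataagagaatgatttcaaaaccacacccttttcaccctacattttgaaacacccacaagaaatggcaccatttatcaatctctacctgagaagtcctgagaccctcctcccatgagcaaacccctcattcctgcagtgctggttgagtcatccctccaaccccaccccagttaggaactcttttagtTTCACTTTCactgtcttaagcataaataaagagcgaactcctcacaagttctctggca
Myl9: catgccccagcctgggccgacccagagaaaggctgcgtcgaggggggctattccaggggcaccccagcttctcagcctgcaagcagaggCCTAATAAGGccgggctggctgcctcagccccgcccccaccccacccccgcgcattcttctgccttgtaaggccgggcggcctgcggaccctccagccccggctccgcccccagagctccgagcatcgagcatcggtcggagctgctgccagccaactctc
Acta1: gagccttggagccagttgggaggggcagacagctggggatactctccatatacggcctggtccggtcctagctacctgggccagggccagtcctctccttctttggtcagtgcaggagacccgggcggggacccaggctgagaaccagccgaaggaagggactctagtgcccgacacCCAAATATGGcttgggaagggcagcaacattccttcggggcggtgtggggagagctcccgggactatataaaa
Mt2: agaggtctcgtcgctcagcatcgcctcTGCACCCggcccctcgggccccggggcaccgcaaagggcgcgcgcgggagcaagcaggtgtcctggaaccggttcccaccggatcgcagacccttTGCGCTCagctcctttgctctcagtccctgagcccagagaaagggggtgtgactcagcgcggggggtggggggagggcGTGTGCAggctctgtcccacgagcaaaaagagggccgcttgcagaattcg
Hspa5: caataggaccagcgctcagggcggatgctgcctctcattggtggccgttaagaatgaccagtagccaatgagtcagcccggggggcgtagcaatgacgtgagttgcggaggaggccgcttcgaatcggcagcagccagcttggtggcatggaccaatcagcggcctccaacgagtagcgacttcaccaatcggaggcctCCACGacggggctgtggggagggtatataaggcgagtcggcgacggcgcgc

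Windows were found for 8023 of the 10223 genes, 10303 windows in all. The interferon motif was in 12 of 25 windows of the interferon list (48%), against 5.998% of the windows of all genes measured. The CArG box was in 6 of 26 windows of the contractile list (23.1%), against 1.18%. CCACG was in 15 of 20 windows of the ER list (75%), against 42.6%, and the metal response element in 7 of 16 windows of the metal list (43.8%), against 30.8%. The glucocorticoid motif ACANNNTGT was in 5 of 29 windows of the glucocorticoid list (17.2%), against 3.22%, and the antioxidant motif TGACNNNGC in 7 of 37 windows of the NRF2 list (18.9%), against 11.8%. TGACGTCA or TGACGCAA, the cAMP element, was in 0 of 26 windows of the cAMP list, against 3.57%. Among the genes at least 2-fold lower with 1,3BD, whatever their list, the CArG box was in 1.98% of windows and the interferon motif in 6.88%. No motif of another kind overlapped the matches printed above. These shares describe letters in the windows and do not show binding.

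With 1,3BD, 901 genes were at least 2-fold higher (8.81% of 10223) and 1445 at least 2-fold lower (14.1%). Larger differences were mostly decreases. At 4-fold there were 103 genes higher and 405 lower, at 16-fold 9 and 77, and at 64-fold 2 and 9. The median log2 difference of all genes, taken as log2(CPM + 0.08), was -0.05, with quartiles of -0.61 and 0.49. Higher genes made up 38.4% of the 2-fold calls on the authors' scale. They made up 61.2% when library totals were used without factors and 63.2% when mitochondrial genes were also left out of the totals, and the median of all genes was then 0.20 and 0.23. The log2 differences below are on the authors' scale and are read against its median of -0.05. Counts of list members are read against the 8.81% of all genes that were higher and the 14.1% that were lower.

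**Figure D1:**
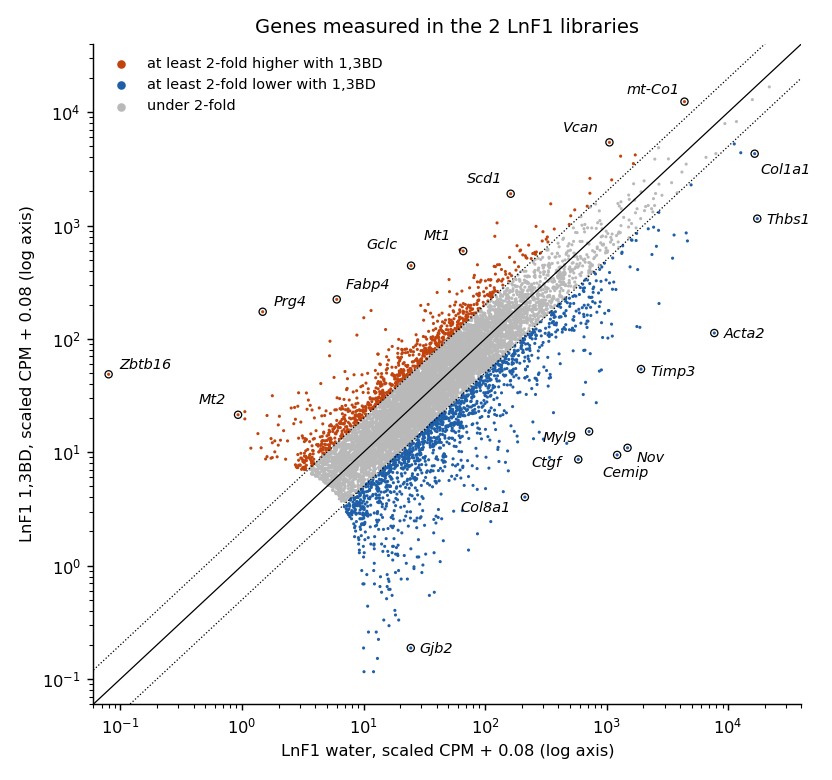
Scaled CPM of each measured gene in LnF1 water (horizontal, log axis) and LnF1 1,3BD (vertical, log axis), 1 library each, with 0.08 added. The solid line marks equal levels and the dotted lines 2-fold differences; the 1445 lower genes reach farther from the line than the 901 higher ones, and Zbtb16 lies farthest above it.

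Genes of the contractile cytoskeleton had the lowest median of the 42 gene lists that had at least 5 measured members. The lists were chosen with earlier results of these data known, so their ranking is a description only. Of 25 measured genes of this list, 24 were at least 2-fold lower and 0 higher, with a median of -3.06, and the list took 2.41% of reads in water and 0.435% with 1,3BD. Acta2, smooth muscle actin and the classic marker of myofibroblasts (chromosome 19, 34241090 to 34255590, minus strand, GRCm38), stood at 7692 CPM in water and 113 CPM with 1,3BD, a 68.3-fold difference (counting interval 65.9 to 70.8). In the ObF1 pair it stood at 8097 and 165 CPM, so that both water libraries lay far above both 1,3BD libraries. In a bulk pool, fewer cells of a type and less RNA per cell cannot be told apart.

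The same pattern ran through the regulators and motors of smooth muscle contraction. Myl9, the regulatory myosin light chain, went from 718 to 15.2 CPM in LnF1 and in ObF1 from 824 to 23.6. Cnn1, the actin-binding calponin, went from 469.9 to 11.9 CPM (39.5-fold), and Lmod1, a nucleator of actin filaments in smooth muscle, from 111 to 2.37 CPM (47.1-fold). Mrvi1, which restrains calcium release under nitric oxide signals, stood at 13.2 and 0.143 CPM, the second value being 4 reads. Acta1, the skeletal muscle actin, stood at 86.5 and 1.83 CPM, while other muscle markers such as Myf5 and Myh4 had 0 reads in all 4 libraries. Cald1 was the member under 2-fold, at 2482 and 1502 CPM.

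The cytoplasmic actins, used by every cell, were lower as well. Actb stood at 4623 CPM in water and 732 CPM with 1,3BD (6.32-fold), and Actg1 at 3489 and 515 CPM (6.77-fold). Flna, which cross-links actin filaments, stood at 4516 and 861 CPM (5.25-fold). The actin genes are near-identical in their coding parts, so the split of reads among Acta1, Acta2, Actb and Actg1 is uncertain, but all 4 were lower with 1,3BD in both parental groups. Myom1, a sarcomere M-band protein, and Sorbs2, an adaptor at actin fibres, went from 38.2 to 0.502 and from 14.6 to 0.251 CPM. Summed over the 10 markers of pericytes and vascular smooth muscle, which overlap this list in Myh11, the level was 847 CPM in LnF1 water and 237 with 1,3BD, with 1147 and 195 in ObF1. The abundant markers Pdgfrb, Mcam and Myh11 were lower along with the list, at 538 and 157, 78.4 and 7.53, and 141 and 4.41 CPM. Notch3 stood at 70.3 and 61.5 CPM, and the other 6 stayed under 5 CPM in both LnF1 libraries, with Higd1b at 0 reads. The part of such cells in the decrease was not tested.

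**Figure D2:**
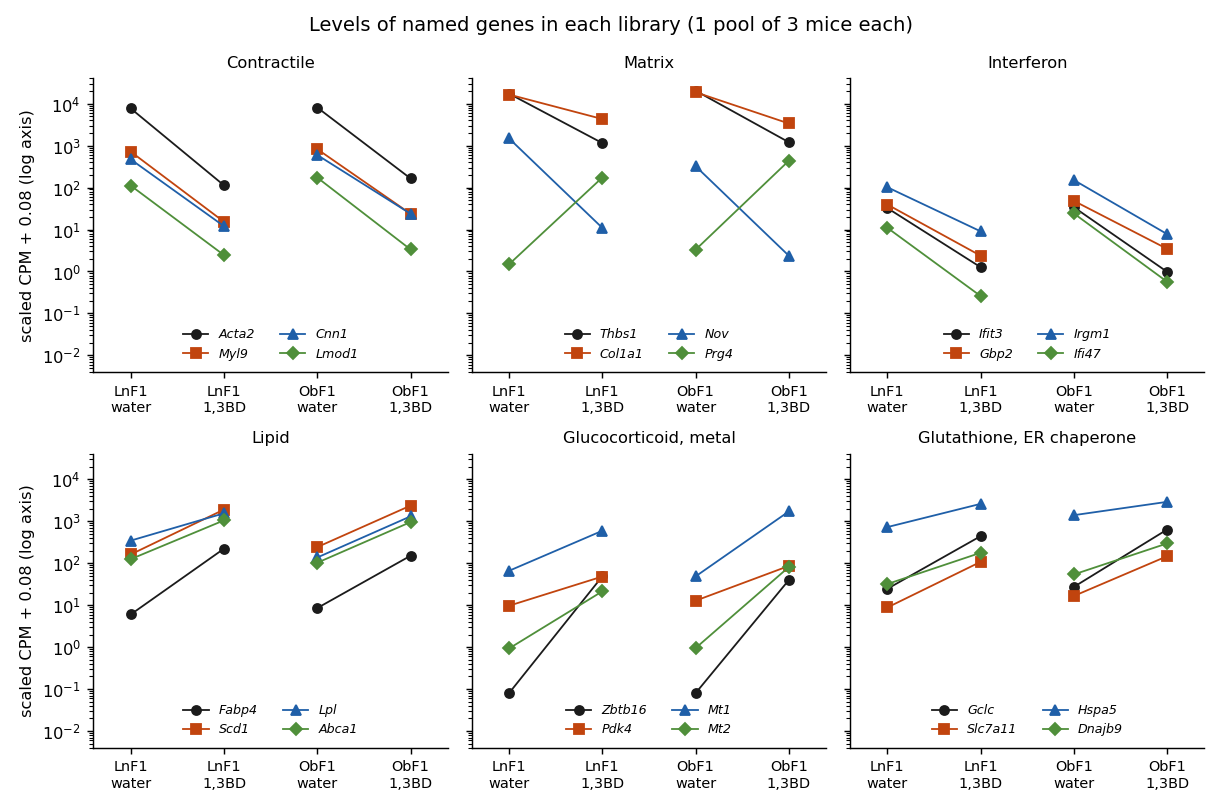
Scaled CPM + 0.08 (vertical, log axis) of 24 named genes in each of the 4 libraries, in 6 panels by role; lines join the water and 1,3BD libraries of the same parents. The slopes in LnF1 and ObF1 run the same way for each gene shown, and Acta2 lies at 7692 and 8097 CPM in the water libraries and at 113 and 165 CPM in the 1,3BD libraries.

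Targets of SRF and YAP were mostly lower. Of 19 measured, 13 were at least 2-fold lower and 1 higher (median -1.15). Ctgf, the matricellular growth factor most often used as a YAP readout, stood at 585 and 8.57 CPM, a 68.2-fold difference, against 2033 and 29.2 CPM in ObF1. Ankrd1, a nuclear muscle ankyrin protein, went from 13.7 to 0.717 CPM, and Cyr61, a relative of Ctgf, from 648 to 79.1 CPM. Fosl1, an AP-1 subunit that the list also holds, was the member above 2-fold in the other direction, at 3.86 and 13.1 CPM.

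Extracellular matrix genes were lower in several classes. Of 32 measured collagen and collagen-processing genes, 14 were at least 2-fold lower, 0 were higher and 18 stayed under 2-fold (median -0.67). Col1a1 and Col1a2, the chains of type I collagen, stood at 16522 and 12698 CPM in water and at 4307 and 4391 CPM with 1,3BD, differences of 3.84-fold and 2.89-fold. Col8a1 and Col8a2, short-chain collagens, differed most, at 213 against 3.94 CPM (53.9-fold) and 19.4 against 0.825 CPM. Col14a1, a fibril-associated collagen, stood at 108 and 7.17 CPM. The basement membrane collagen Col4a1 was above its water level in LnF1, at 2491 and 3858 CPM, but not in ObF1, at 3970.0 and 2791 CPM. The whole list took 6.53% of reads in water and 4.35% with 1,3BD.

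Elastic fibre and matricellular genes were mostly lower. Of 27 measured, 19 were at least 2-fold lower and 1 higher (median -2.01). Thbs1, thrombospondin 1, a matricellular activator of TGF-beta, lost the most CPM of any gene, from 17365 to 1151 (15.1-fold), with 20404 and 1205 in ObF1. Nov, a member of the same CCN family as Ctgf and Cyr61, went from 1487 to 10.9 CPM (137-fold, 122 to 154), the largest log2 decrease of the 10223 genes at -7.09. Eln, elastin itself, stood at 16.1 CPM in water and 0.215 CPM with 1,3BD, which was 6 reads. Sparc, a collagen-binding glycoprotein, stood at 11231 and 5251 CPM (2.14-fold). Fn1, fibronectin, stayed under 2-fold, at 15812 and 12917 CPM, and Tnxb, tenascin X, was the higher member, at 14.9 and 40.3 CPM.

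Proteoglycans split between strong decreases and a few strong increases. Of 24 measured, 9 were at least 2-fold lower and 4 higher. Prg4, lubricin, a secreted lubricating proteoglycan (chromosome 1, 150449412 to 150466165, minus strand), had 1.4 CPM in water and 174 CPM with 1,3BD, a 124-fold difference (88.1 to 180.3), and 3.21 and 436 CPM in ObF1. Vcan, versican, a large hyaluronan-binding proteoglycan, went from 1055 to 5422 CPM. Cemip, which breaks hyaluronan down, went the other way, from 1221 to 9.4 CPM (129.9-fold) in LnF1 with 3052 and 8.62 in ObF1. The small leucine-rich proteoglycan Ogn stood at 147 and 8.07 CPM and its relative Prelp at 671 and 41.3 CPM. Bgn, biglycan, stayed under 2-fold at 7924 and 4315 CPM.

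Matrix proteases and their inhibitors were more often lower than higher, with 10 of 23 at least 2-fold lower and 2 higher. Timp3, an inhibitor of metalloproteases that binds the matrix, went from 1919 to 54.1 CPM (35.5-fold). The urokinase pair, Plau and its receptor Plaur, went from 63.2 to 5.85 and from 17.1 to 1.22 CPM. Ctsl, the lysosomal and secreted cathepsin L, was higher, at 547 and 1376 CPM.

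**Figure D3:**
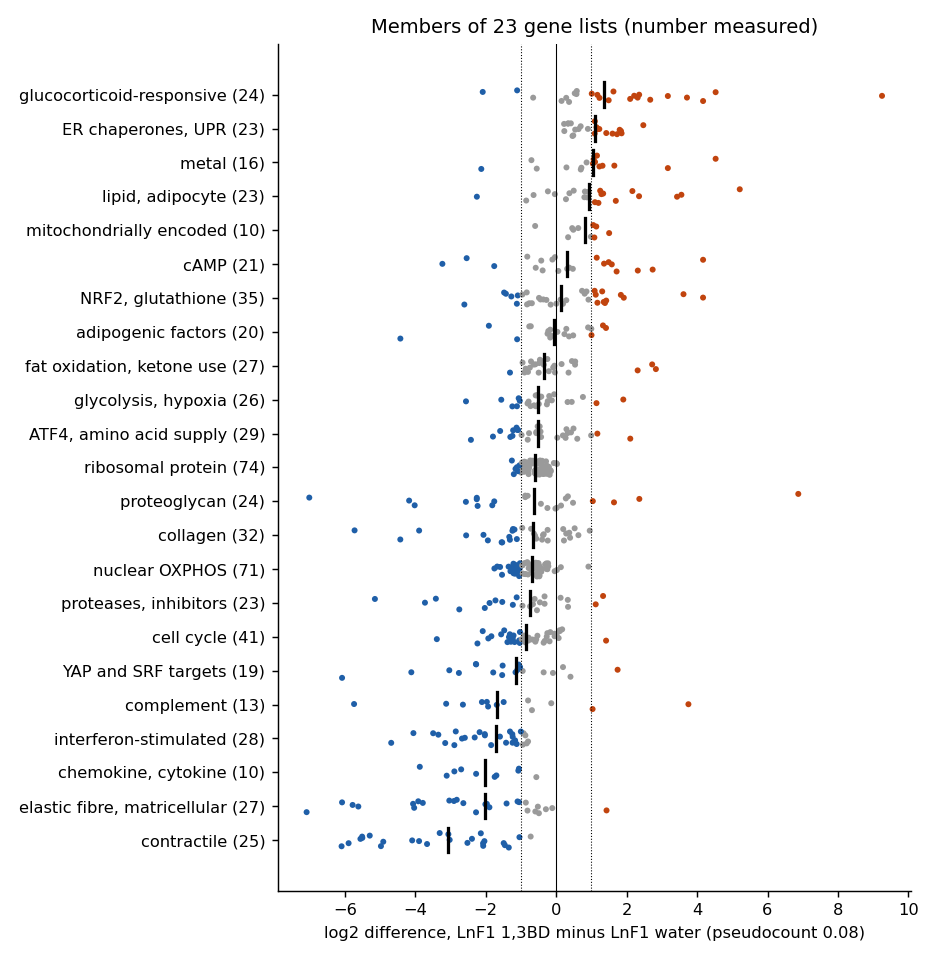
Log2 difference, LnF1 1,3BD minus water (horizontal), of each measured member of 23 gene lists, with the number measured in brackets and the list median as a black bar; red and blue points are at least 2-fold higher and lower. The contractile list lies wholly below 0 and the ER chaperone list wholly above it.

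Interferon-stimulated genes were lower throughout. Of 28 measured, 23 were at least 2-fold lower, 0 were higher and 28 of 28 were below 0 (median -1.72), and 23 were at least 2-fold lower in ObF1 too. Ifit3, which binds viral RNA, stood at 32.4 and 1.18 CPM in LnF1 and 33.9 and 0.90 in ObF1. Gbp2, a guanylate-binding GTPase, stood at 39.3 and 2.3 CPM (17.1-fold). The immunity-related GTPases Irgm1 and Ifi47, the latter not on the list, went from 102 to 8.96 and from 10.9 to 0.179 CPM. Near-identical relatives of Ifit3 and of the GTPases make the split of reads within those families uncertain. The smallest difference, that of Gbp7, still lay at -0.80. White blood cell markers, which could carry such genes, summed to 21.01 CPM in water and 5.41 with 1,3BD, with Lyz2 at 12.2 and 1.33 CPM and Cd3e, Cd79b, Nkg7 and Ms4a1 at 0, and their part was not tested.

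Other inflammatory genes followed. Of 10 chemokine and cytokine genes measured, 9 were at least 2-fold lower (median -2.01), and 18 of the 28 listed did not reach 5 CPM. Cxcl12, the chemokine of stem cell niches, stood at 331 and 38.3 CPM, Cxcl14 at 39.6 and 5.27, and Cxcl5, a neutrophil chemokine, at 10.02 and 0.61. Csf1, the macrophage growth factor, was the member under 2-fold, at 1205 and 815 CPM. Il1rn, the interleukin 1 receptor antagonist, which is not on that list, went from 19.4 to 0.251 CPM. Among 13 complement genes and relatives, 8 were lower and 2 higher. C1qtnf2, a C1q-like secreted protein, went from 9.93 CPM to 3 reads, and Serping1, the C1 inhibitor, from 65.6 to 7.46 CPM.

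Among the increases, Zbtb16 stood apart. This zinc finger factor, a known target of the glucocorticoid receptor, had 0 reads in both water libraries, 1357 reads (48.7 CPM) in LnF1 1,3BD and 1061 reads (39.8 CPM) in ObF1 1,3BD. Against a floor of 3 reads per library it was 382-fold higher in LnF1, and the lower end of its counting interval was 310-fold. Of 24 glucocorticoid-responsive genes measured, Zbtb16 included, 15 were at least 2-fold higher and 2 lower (median 1.36). Rgs2, which damps G protein signals and is also on the cAMP list, went from 5.22 to 95.4 CPM (18.3-fold). Alpl, alkaline phosphatase, which is also on the bone, tendon and cartilage list, went from 1.53 to 21 CPM. Pdk4, which holds glucose carbon back from the mitochondria, went from 9.64 to 48.2 CPM. Chosen after their values were seen, Fkbp5, a chaperone of the receptor, stood at 20.6 and 95.8 CPM, Klf9 at 50.9 and 261 CPM and Glul, glutamine synthetase, at 40.3 and 257 CPM. The receptor gene itself, Nr3c1, chosen the same way, stayed at 71.9 and 87.6 CPM. Not every known target was higher: Cdkn1c, a cell cycle inhibitor, stood at 9.85 and 2.26 CPM, Cebpd at 86 and 39.8, and Sgk1 at 75.3 and 47.8.

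Metal-handling genes were mostly higher, led by the metallothioneins, small zinc-binding proteins. Of 16 measured, 9 were at least 2-fold higher and 1 lower (median 1.05). Mt2 went from 0.849 to 21.3 CPM (25.1-fold) and Mt1 from 66 to 595 CPM (9.01-fold). In ObF1, Mt1 stood at 48.5 and 1723 CPM and Mt2 at 0.869 and 81.3 CPM. Mt1 and Mt2 are also on the glucocorticoid list. Fth1, the heavy chain of the iron store ferritin, went from 1304 to 4097 CPM, and Slc40a1, the iron exporter ferroportin, went the other way, from 9.97 to 2.22 CPM.

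Genes of the NRF2 list, which handle glutathione and oxidants, went both ways. Of 35 measured, 11 were at least 2-fold higher and 6 lower (median 0.12). Gclc, the catalytic subunit of the first enzyme of glutathione synthesis (chromosome 9, 77754535 to 77794485, plus strand), went from 24.5 to 443 CPM (18.1-fold, 16.6 to 19.7) with 27.2 and 638 in ObF1. Slc7a11, which brings in cystine for that synthesis, went from 8.74 to 108 CPM (12.4-fold), and Mgst1, a membrane glutathione transferase, from 74.6 to 282 CPM. In the opposite direction, Gpx1, the main cytosolic glutathione peroxidase, stood at 320.4 and 52.5 CPM, and the transferases Gsto1 and Gstm2 at 312 and 112, and at 204 and 75.8 CPM. Nqo1, a textbook NRF2 target chosen after its values were seen, hardly differed, at 33.4 and 36.4 CPM.

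ER chaperones and their regulators all had differences above 0 in LnF1. Of 23 measured, 12 were at least 2-fold higher, 0 were lower and 23 lay above 0 (median 1.09), though in ObF1 4 reached 2-fold (median 0.46). Hspa5 (BiP) went from 729 to 2609 CPM (3.58-fold), with 1402 and 2914 in ObF1. Hyou1, another lumenal chaperone, went from 183 to 664 CPM, and Dnajb9, a BiP cofactor that marks an active unfolded protein response, from 31.9 to 178 CPM. The amino acid and ATF4 genes, another arm of the stress response, did not follow: of 29, 2 were higher and 9 lower (median -0.53). Phgdh, the first enzyme of serine synthesis, stood at 231 and 43.1 CPM. Within that list Vldlr, a lipoprotein receptor, was highest in difference, at 80.7 and 347 CPM.

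Genes of lipid uptake and synthesis were more often higher than lower. Of 23 measured, 11 were at least 2-fold higher and 1 lower (median 0.92), and their share of reads was 0.286% in water and 0.924% with 1,3BD. Fabp4, the fatty acid carrier of adipocytes (chromosome 3, 10204088 to 10208576, minus strand), went from 5.94 to 223 CPM (37.6-fold, 31.8 to 44.7) with 8.47 and 151 in ObF1. Scd1, which desaturates stearate, went from 162 to 1909 CPM (11.8-fold), and its close relative Scd2, with which it may share reads, from 1101 to 2529. Lpl, which frees fatty acids from lipoproteins, went from 347 to 1555 CPM. Tusc5, an insulin-linked adipocyte protein, went from 1.27 to 14.5 CPM. Fabp5, the other fatty acid carrier on the list, was lower, at 86 and 18 CPM.

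Markers of the mature adipocyte mostly remained at or near 0. Adipoq and Lep had 0 reads in all 4 libraries, and Cidec, which fuses lipid droplets, had 0 reads in both LnF1 libraries. Plin1, the droplet coat protein, stood at 0.0849 CPM in water and 5.09 CPM with 1,3BD, and Lipe, hormone-sensitive lipase, at 5.43 and 10.04 CPM. Of 20 factors that regulate adipogenesis, 3 were at least 2-fold higher and 3 lower, where 8.81% and 14.1% of all genes were, and their median of -0.06 changed sign to 0.19 without scaling factors. Pparg, the central adipogenic factor, chosen after its values were seen, stood at 11.8 and 23.6 CPM in LnF1, just under 2-fold, and at 5.69 and 20.5 in ObF1. Nr2f2, a nuclear receptor of progenitors, led the increases at 41.8 and 111 CPM, and Klf2, a brake on adipogenesis, the decreases at 22.4 and 0.968 CPM.

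Cholesterol genes mostly stayed under 2-fold. Of 25 measured, 3 were higher and 1 lower, where 8.81% and 14.1% of all genes were. Abca1, which exports cholesterol from the cell, went from 125 to 1056 CPM (8.42-fold), with 103 and 959.9 in ObF1. Mvk, mevalonate kinase of the synthesis pathway, stood at 31.8 and 12.4 CPM. Star, which carries cholesterol into mitochondria and is not on that list, went from 2.46 to 24.5 CPM.

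Of 27 genes for using ketone bodies and fatty acids, 3 were at least 2-fold higher and 1 lower (median -0.35). Of all genes, 8.81% were higher and 14.1% lower. The higher list members were Slc16a1, Slc16a6 and Pdk4. The lower one was Acads, a dehydrogenase of short-chain fatty acids, at 43.6 and 17.5 CPM. Slc16a1, the monocarboxylate transporter MCT1 that carries lactate and ketone bodies, went from 50.5 to 334 CPM and in ObF1 from 42.8 to 249.9. Its family member Slc16a6 went from 3.57 to 25.9 CPM. Oxct1, the enzyme that commits ketone bodies to oxidation, stood lower at 142 and 76 CPM, and Bdh1, which interconverts beta-hydroxybutyrate and acetoacetate and was chosen after its values were seen, at 6.88 and 4.16 CPM. Neither of these 2 enzymes reached 2-fold in LnF1. Aldehyde dehydrogenase and retinoid genes included 9 of 22 at least 2-fold lower and 3 higher, with the retinoic acid enzymes Aldh1a2 at 22.9 and 0.681 CPM and Aldh1a3 at 14 and 0.502 CPM. Acss3, a mitochondrial short-chain acyl-CoA synthetase on neither list, went from 2.8 to 25.4 CPM.

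Mitochondrial transcripts and nuclear genes of the same respiratory chain had medians on opposite sides of 0. Mitochondrially encoded genes took 1.12% of reads in LnF1 water and 2.78% with 1,3BD, and 1.29% and 5.79% in ObF1. Of 10 measured, 4 were at least 2-fold higher and 0 lower (median 0.81). mt-Co1, a core subunit of cytochrome oxidase, gained the most CPM of any gene, from 4372 to 12398. Of 71 nuclear oxidative phosphorylation genes, 23 were at least 2-fold lower and 0 higher (median -0.70), with Ndufb7 of complex I at 42.1 and 12.4 CPM. Of 74 ribosomal protein genes, 7 were lower and 0 higher (median -0.59), where 14.1% and 8.81% of all genes were. Their share of reads went from 5.03% to 3.93% in LnF1. In ObF1 that share went from 3.75% to 3.85%, and the median was -0.15. Some mitochondrial genes have nuclear copies and ribosomal genes have many pseudogenes, so single members are uncertain.

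Differences varied with gene length. Over 4 groups of equal size by summed exon length, from shortest to longest, the median log2 difference was -0.43, -0.11, 0.09 and 0.28 in LnF1 and -0.34, -0.16, 0.01 and 0.26 in ObF1, and 588 of the 2557 shortest genes were at least 2-fold lower against 228 of the 2555 longest. With differences centred within 10 groups of length, an alternative chosen after seeing the data, the median of ribosomal genes was -0.20 and that of nuclear oxidative phosphorylation genes -0.29, both nearer 0, while that of mitochondrially encoded genes was 1.35, farther from it and past 1. The contractile list stayed at -3.03, the interferon list at -1.73 and the glucocorticoid list at 1.72 after that centring, while the metal and ER lists moved from just above to just below 1, at 0.92 and 0.98. Of 5 measured nuclear and histone RNAs kept as a check of RNA quality, 2 were at least 2-fold higher with 1,3BD, Malat1 at 1720.3 and 4202 CPM and Neat1 at 81.7 and 364. The other 3 were under 2-fold and below 0 on the log2 scale, with Meg3 at -0.20 (0.06 without scaling factors), Hist1h1c at -0.59 and Hist1h2bc at -0.75. The row CT010467.1, annotated as ribosomal RNA, took 2.07% and 1.90% of reads in the LnF1 libraries, and 2.59% and 0.178% in the ObF1 libraries. The part of RNA quality or library making in these differences was not tested.

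**Figure D4:**
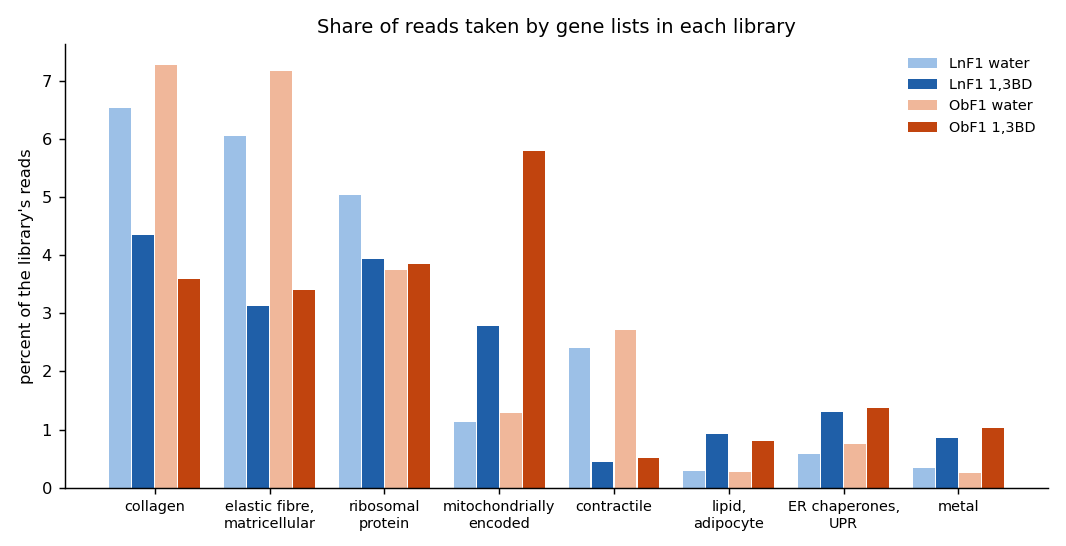
Percent of each library's reads (vertical, from 0) taken by 8 gene lists, 1 bar per library. Matrix and contractile lists take less of both 1,3BD libraries than of their water partners, and lipid, ER chaperone, metal and mitochondrially encoded genes take more.

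Growth factor and signalling genes were divided. Of 17 genes of the insulin-like growth factor system, 6 were lower and 3 higher. Igf1, the ligand, went from 134 to 20.9 CPM, and the binding protein gene Igfbp6 from 169.5 to 37.5. On the receiving side, the insulin receptor Insr went from 57.3 to 211 CPM and its adaptor Irs2 from 8.28 to 48.2. The other adaptor, Irs1, stood lower at 38.3 and 16.1 CPM.

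Of 32 TGF-beta, BMP and activin genes, 10 were lower and 4 higher. The ligand Tgfb3 stood at 122 and 15.8 CPM and the receptor Acvrl1 at 101 and 15.8, while the receptors Tgfbr1 and Tgfbr3 were higher with 1,3BD, at 61.7 and 180.4, and at 299 and 883 CPM. Among 19 Wnt pathway genes 8 were lower and 1 higher. The secreted inhibitor Dkk2 stood at 20.3 and 0.681 CPM, and Fzd1, a receptor, at 113 and 248.

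Genes of the cAMP pathway included 8 of 21 that were at least 2-fold higher and 3 lower. The phosphodiesterases Pde4d and Pde3b, which break cAMP down, went from 29.5 to 197 and from 17.1 to 85.8 CPM, and the adenylate cyclase Adcy7, which makes it, from 19.2 to 1.97. The clock list held 4 of 17 genes higher and 1 lower, with Rora at 46.3 and 137 CPM, Per2 at 6.88 and 19.7 and Per1, which glucocorticoids also induce, at 43.1 and 121.

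Cell cycle genes were lower in part. Of 41 measured, 17 were at least 2-fold lower and 1 higher (median -0.84). Ccnd1, the cyclin that starts the cycle, stood at 131 and 12.4 CPM and the locus of the inhibitors Cdkn2a at 70.7 and 15 CPM. Mki67 and Top2a, markers of dividing cells chosen after their values were seen, stayed under 2-fold, at 98.5 and 82.7 and at 125 and 111 CPM. Rrm2, a subunit of ribonucleotide reductase, was the higher member, at 65.8 and 176 CPM.

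Markers of adipose progenitors and fibroblasts did not move as one. Of 21 measured, 4 were higher and 8 lower. Pdgfra, the general progenitor receptor, stayed at 243 and 281 CPM, and Ly6a (Sca-1) at 300.5 and 219. Pdgfrb, shared with pericytes, was lower at 538 and 157 CPM, as was Thy1 at 651 and 157. Markers of progenitor subsets went opposite ways. F3 (CD142) stood at 832 and 172 CPM and Cd55 at 8.79 and 18.1 CPM, while Dpp4 and Pi16 stayed under the 5 CPM limit. Fgf10, an adipogenic growth factor, went from 3.18 to 12.3 CPM. The largest log2 decreases on the list were those of Clec11a (-4.16), Mgp (-3.33) and Cd9 (-2.90). Procr (1.42) and Cd24a (1.04) were higher.

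Other lists are given by their counts. Of all genes measured, 8.81% were at least 2-fold higher and 14.1% at least 2-fold lower. Immediate early genes were at least 2-fold higher in 2 of 25 and lower in 8, glycolysis and hypoxia genes in 2 and 6 of 26, and FOXO and insulin-signalling genes in 5 and 5 of 22. Imprinted genes were higher in 1 of 17 and lower in 6. Cytosolic heat shock chaperones were higher in 1 of 14 and lower in 3, lysosomal genes in 1 and 0 of 28, and Hox genes in 0 and 2 of 18. Antigen presentation genes were lower in 4 of 12 and higher in 0, and prostaglandin genes in 3 and 1 of 10. Bone, tendon and cartilage genes were lower in 5 of 8 and higher in 2, Notch genes in 1 and 1 of 7, and beige fat genes in 0 and 2 of 5. Of the 42 lists, 3 had a median of at least 1 (glucocorticoid, ER chaperone and metal) and 7 a median of at most -1. These counts depend on how the lists were drawn, which was done with earlier results known.

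Several of the largest differences fell in no list. Gjb2, a gap junction protein, went from 24.4 CPM to 3 reads, Robo2, a guidance receptor, from 12.9 CPM to 2 reads, and Megf6 from 10.02 CPM to 1 read. The counting intervals of such ratios are wide, 77.2 to 1103 for Gjb2. Cdh3, P-cadherin, went from 73 to 1.29 CPM. Upward, Gda, guanine deaminase, went from 11.5 to 178 CPM (15.5-fold), Tmem100 from 0.976 to 19.6, Draxin, a Wnt antagonist of axon guidance, from 1.7 to 31.4 and Slc43a3, a purine base transporter, from 62.1 to 611. Ddr2, a collagen receptor, went from 729 to 1928 CPM.

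The ObF1 pair, which shares no library with the LnF1 pair, served to see which differences recurred. Over the same 10223 genes, 1077 were at least 2-fold higher with 1,3BD in ObF1 (10.5%) and 1769 at least 2-fold lower (17.3%). Of the 901 genes higher in LnF1, 601 were at least 2-fold higher in ObF1 (66.7% of the LnF1 genes and 55.8% of the ObF1 genes). Of the 1445 lower in LnF1, 1097 were at least 2-fold lower in ObF1 (75.9% and 62.0%). The sign was the same for 890 and 1419 of them, and 1 gene, the ribosomal pseudogene Rps16-ps2, was 2-fold different in opposite directions. Across the 10223 genes, which are not independent replicates, Pearson's r of the paired differences was 0.862 and Spearman's rho 0.830. The difference between the parental groups was not tested, since each has 1 library per drink.

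**Figure D5:**
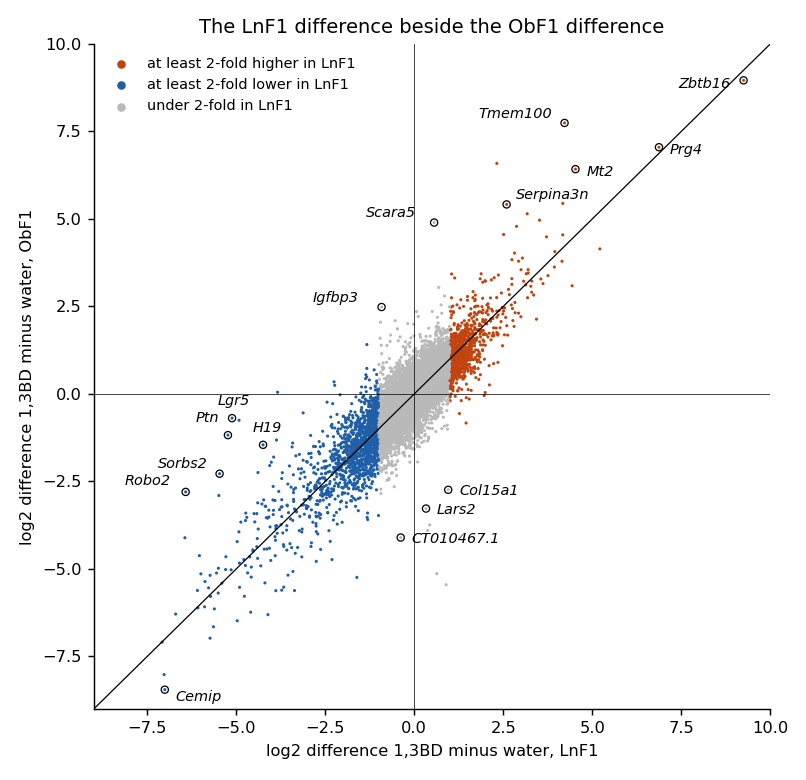
Log2 difference 1,3BD minus water in LnF1 (horizontal) and ObF1 (vertical) for the 10223 genes, with the line of equal differences. Most genes lie along the line (Pearson's r 0.862), and the labelled genes away from it include those whose 2 differences were farthest apart.

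At least 2-fold apart between the parental groups were 691 of the 10223 differences (6.76%). In Lgr5, Ptn, H19 and Cpxm2, the water libraries differed from each other by a larger ratio than the 1,3BD libraries did. Lgr5, a Wnt-linked stem cell receptor, had 30.1 CPM in LnF1 water and 1.87 in ObF1 water, against 0.789 and 1.12 CPM with 1,3BD. Ptn, the growth factor pleiotrophin, had 339.6 and 19.2 CPM in the water libraries and 8.93 and 8.44 CPM with 1,3BD. The imprinted RNA H19 had 250.3 and 14.3 CPM in water, and 13.1 and 5.17 with 1,3BD. In the other direction Cpxm2, a carboxypeptidase-like protein, had 3.44 and 20.4 CPM in water, and 1.76 and 1.2 CPM with 1,3BD. Serpina3n, a secreted protease inhibitor, was higher with 1,3BD in both, at 7.3 and 44.5 CPM in LnF1 against 1.56 and 70.05 in ObF1. Scara5, a ferritin receptor, had 11.5 and 17 CPM in LnF1, and 0.217 and 8.77 in ObF1. Lars2, which encodes a mitochondrial tRNA synthetase, stood at 844 and 1059.5 CPM in LnF1, while in ObF1 it was lower with 1,3BD, at 1528 and 157 CPM, as CT010467.1 was.

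The thresholds had genes close on either side. Just past 2-fold were Timm9 (7.6 and 15.3 CPM), Ifih1, an interferon-induced RNA sensor (23.2 and 11.5), and Ebf2 (8.87 and 17.9). Just short of it were Pepd (26.6 and 13.3 CPM), Psmb7 (86.8 and 43.4) and Mybl2 (8.11 and 4.02). Dnajc28 (2.76 and 7.24 CPM) lay just above the mean of 5 CPM and Tmub1 (6.58 and 3.41) just below it.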

How the data were processed

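Polyadenylated RNA was sequenced from 4 libraries of the inguinal fat SVF, each a pool of 3 mice at postnatal day 21. Per the labels' protocols, RNA was taken with TRIzol and libraries were made with the KAPA mRNA HyperPrep kit. Per the submitters' processing notes, mm10, edgeR and DESeq2 were used, with no role stated. For the aligner, the counter, the annotation and the strand setting, nothing was given in the sources used here. The values as deposited are a signal: read counts per gene divided by a scaled library total, made by the authors and given per 1000000 reads. Whole reads were recovered from them (100% of values whole within 1e-06) and gave the depth, the counting intervals and the floor of 3 reads. The columns without a drink in their name were taken as water.

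Differences were log2(CPM + 0.08), 1,3BD minus water, for genes at a mean of at least 5 CPM, and called at 2-fold. With 1 library per group no p-value was given. The members and the gene lists were chosen with earlier results of these data known. The rule for naming genes took the 30 per direction with the largest log2 differences and the 12 with the largest CPM differences. It also took the 3 most different in each direction of each list and all progenitor and other cell type markers. Last came the 8 per direction with LnF1 and ObF1 differences farthest apart, genes opposite in both pairs, and those next to the thresholds. The text describes a part of these genes and leaves the rest to the counts. Cald1, Csf1, Gbp7, Fkbp5, Klf9, Glul, Nr3c1, Nqo1, Pparg, Bdh1, Mki67 and Top2a lie outside that rule and were chosen after their values were seen. Exon lengths and gene positions came from a GRCm38 annotation and promoter windows from RefSeq. Alternatives changed the pseudocount, the filter, the scaling, the fold and, added later, a length centring and an edgeR test. The scripts were tested on simulated data. Python 3.11.15, numpy 2.4.6, pandas 2.3.3, scipy 1.17.1, matplotlib 3.10.9, R 4.3.3 and edgeR 4.0.16 were used.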

Additional observations from a re-analysis of the deposited data

Results flagged for a closer look

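Of 285 named genes checked, 6 moved in opposite directions with 1,3BD in the LnF1 and ObF1 pairs, by at least 0.5 on the log2 scale in each. Every group had 1 library, so the difference between the pairs was not tested. Col15a1, a basement membrane collagen, had a log2 difference of 0.95 in LnF1 (41.5 to 80.3 CPM) and -2.74 in ObF1 (172 to 25.7 CPM). Igfbp3, a carrier of insulin-like growth factors, had -0.92 in LnF1 (403 to 213 CPM) and 2.48 in ObF1 (61.4 to 344 CPM). The ribosomal pseudogene Rps16-ps2, whose reads may come from its parent gene, had -1.33 in LnF1 and 1.41 in ObF1. The mitochondrial ribosomal RNA mt-Rnr1 had -0.60 in LnF1 and 0.62 in ObF1. Col4a1 had 0.63 in LnF1 and -0.51 in ObF1, and Bmp1, which trims procollagen, had 0.52 and -0.52.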

How the results depend on the processing

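No paired analysis was possible because LnF1 has 1 library per drink, which also leaves no library to leave out within it. The 2-fold counts on the authors' scale were 901 genes higher and 1445 lower, with 601 and 1097 repeating in ObF1 and 3 gene lists with a median of at least 1 and 7 of at most -1. Without a filter on low values, 3528 genes were higher and 4147 lower, 1686 and 2362 repeated, and 12 lists were lower. With library totals and no factors, 1592 genes were higher, 1091 repeated and 5 lists were higher. With nuclear genes only in the totals these were 1678, 1227 and 5. At 4-fold, 103 genes were higher and 405 lower, 78 and 306 repeated, and 0 lists were higher and 3 lower. At 1.5-fold these were 2128 and 2654, 1548 and 2054, and 5 and 16. Pseudocounts of 0.5 and 1, a minimum of 1 or 10 CPM, median-of-ratios scaling and centring by length kept all of these counts within 1.5 times. The edgeR quasi-likelihood test of drink over all 4 libraries with the parental group as a term, chosen after seeing the data, called 2634 genes higher and 2899 lower of 12853 at an adjusted p threshold of 0.05. It blocks on the parental group, takes the pairs as replicates of the drink, includes the LnF1 libraries and so is no independent check of them. Of 461 list medians under alternatives, 460 moved by less than 1 SD of the list's members, and the ribosomal one moved by more, to -0.20 with length centring. That SD is a wide limit, and some shifts within it were large. The Wnt median went from -0.18 to -1.05 with a minimum of 1 CPM. The bone, tendon and cartilage median went from -1.54 to -0.72 with that minimum and to -0.13 with no filter. Of 1706 values of named genes, 0 called ones reversed and 670 left their counting interval. Depth limits genes with few reads in a library, whose folds are wide, and 1 pool a side leaves the spread between mice unknown.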
